A study of Mus musculus with 12 samples.

Results

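Splenic dendritic cells (DCs) from C57BL/6 mice were compared after 3 h with allospecific effector memory T cells (AlloTem) and after 3 h with lipopolysaccharide (LPS). The comparison covers 6 of the 12 libraries of the study, the 3 AlloTem and the 3 LPS libraries, chosen by their labelled group and taken over all genes. Both groups held DCs from mice carrying B16 tumours that secreted Flt3 ligand, which expands DC numbers. T, B and NK cells and macrophages were depleted with beads before culture, and the DCs were sorted afterwards on CD11b and CD11c. The AlloTem cultures also held alloantigen-specific memory T cells of BALB/c origin, whereas the LPS cultures held none. The LPS dose and the number of T cells are not stated in the labels. Stimulus, presence of T cells and any T cell RNA left after the sort therefore cannot be told apart between AlloTem and LPS. DCs cultured alone (DC only, 3 libraries) gave the background. DCs with syngeneic memory T cells from C57BL/6 mice (SynTem, 3 libraries) are used here for levels. All 12 libraries entered the fit, so DC only and SynTem also shaped the spread behind each p-value.

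LPS is a bacterial cell wall component that DCs sense through Toll-like receptor 4, which activates NF-kB and interferon regulatory factors. A memory T cell that recognises its antigen on a DC signals back through CD40 ligand and through secreted cytokines. Those cytokines act on the DC through JAK kinases and STAT transcription factors: GM-CSF and IL-3 through STAT5, and IL-4 and IL-13 through STAT6. Cish and the Socs genes are feedback inhibitors that STATs induce, so they serve as markers of such signalling.

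The LPS libraries held 16587165, 17459890 and 17472400 counts and the AlloTem libraries 21861156, 21555110 and 20055002. The table lists 57009 gene identifiers, and 14413 of them passed the filter on low counts and were tested. Levels are given as CPM (counts scaled to a common library total, adjusted for composition), in the order of libraries 1, 2 and 3. The deposited batch numbers equal the library numbers. The DC marker Itgax (CD11c) was at 393, 436 and 319 CPM in LPS and 435, 440.4 and 288 CPM in AlloTem, and Flt3 at 369, 452 and 443 and 329.99, 379 and 403 CPM. Of 15 tested markers of DCs in general, 10 had a negative and 5 a positive difference between AlloTem and LPS (median log2 -0.15). None of the 15 was called by edgeR, where 0.451% of all genes were. With the batch number as a block Kmo rose and Snx22 fell, where 0.944% of all genes were called. Transcripts of Y-linked genes, which summed to 204 CPM in AlloTem 3 and 219.6 CPM in LPS 3, were at 5.70 CPM in AlloTem 1 and at 0 in the other libraries of these groups. Batch 3 thus differed from batches 1 and 2 in the same way in both groups. No library pair within either group agreed within sampling noise (chi-square per degree of freedom between 28.1 and 73.0). Among the other libraries in the fit, DC only 1 and 2 were closer to each other than any other pair of a group (5.82), and SynTem 2 carried 175 CPM of Y-linked transcripts, unlike the other libraries of batch 2. The deviations of DC only 2 and SynTem 2 from their group means were most like those of other batches (0.276 with SynTem 1 and 0.476 with AlloTem 3), so the spread shared by 4 groups and the batch block both rest in part on these 2 libraries. Without them 25 genes were called between AlloTem and LPS, against the 65 given next. A fit of the 6 compared libraries alone called 9. Nothing in the labels ties a replicate to its own animal or culture, and p-values here cover the spread among libraries only, part of which may be technical.

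A set of cytokine-response genes was higher in AlloTem than in LPS. None of 29 tested NF-kB targets was called, with a median log2 difference of 0.06. With 0.451% of all genes called, a count of 0 in a list of this size is near the background. In all, 57 genes rose in AlloTem relative to LPS and 8 fell (edgeR, quasi-likelihood F test, p adjusted by Benjamini-Hochberg, threshold 0.05), which is 0.395% and 0.0555% of the genes tested and 0.451% in all. Of these, 46 rose and 3 fell by at least 2-fold. The 3 AlloTem libraries did not overlap the 3 LPS libraries for 65 of these 65 genes, where 10.1% of all genes tested did not overlap (5.52% with AlloTem higher). It follows from this lack of overlap that every one of the 57 was higher and every one of the 8 lower in 3 of 3 batches. The batch directions therefore add no separate evidence. For 52 of the 57, the lowest AlloTem library also lay above all 9 libraries of the other groups. This count is in part built in, since the genes were chosen as high in these AlloTem libraries. The same share over all genes tested was not counted. The 57 genes had a median log2 difference of 1.96 from LPS and 1.98 from DC only, and for 51 of them LPS differed from DC only by less than 1 on the log2 scale. Over all genes tested the median difference between LPS and DC only was 0, and the share within that limit was not counted. Choosing genes that lie above LPS also favours low LPS levels.

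With the batch number as a block, 109 genes rose and 27 fell (0.756% and 0.187% of genes tested, 0.944% in all), including 60 of the 65. Socs3, Cpa3, Cited2, Gm15772 and Gm45220 were called without the block only. The count rested on single libraries: 36 genes were called without LPS 1, 9 without LPS 2, 18 without LPS 3 and 33 without AlloTem 2. Ccl17, Irf4, Nfil3, Gprc5c, Slc30a4, Fzd7, Orai1 and F630028O10Rik were called in all 6 fits with 1 library omitted, and the other 57 lost the call in at least 1 of them. All 65 kept their direction in those 6 fits.

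**Figure D1:**
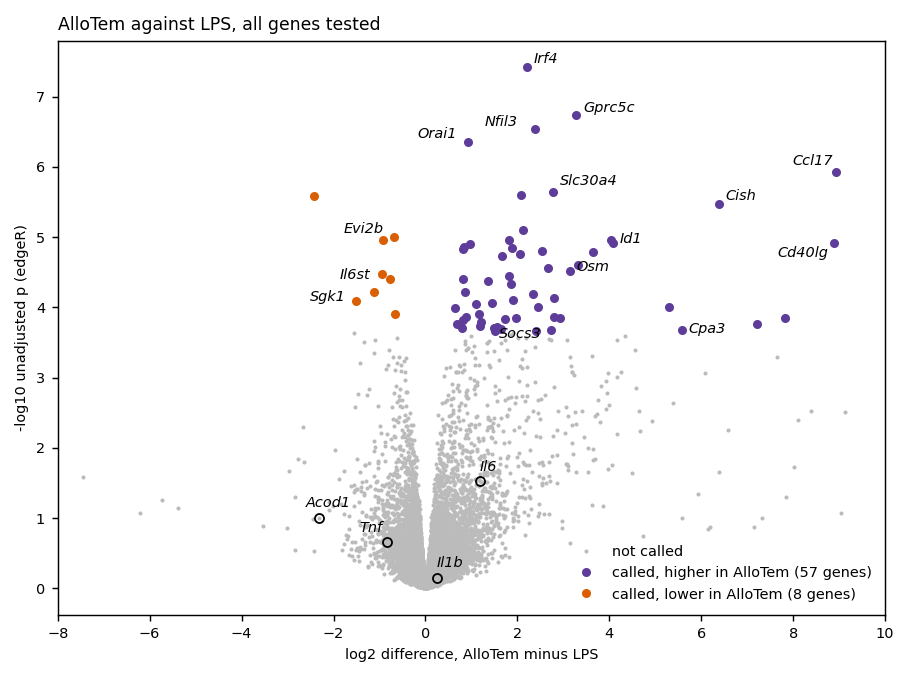
Each point is 1 of 14413 genes, with the log2 difference between AlloTem and LPS on the horizontal axis and the unadjusted edgeR p on a -log10 scale on the vertical axis. Purple marks the 57 genes called higher in AlloTem and orange the 8 called lower. Irf4 has the smallest p and Ccl17 the largest difference, while Il1b, Il6, Tnf and Acod1 (open circles) lie among the genes that were not called. For genes without counts in LPS, such as Cd40lg, the plotted difference depends on the prior count of the fit and is no measure of its size.

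Target genes of STAT5 included the strongest rises. Of 27 tested genes in a list of the response to GM-CSF, IL-2 and IL-3, 7 rose in AlloTem and none fell, where 0.395% of all genes rose. The list was chosen with earlier results of these data known, so this count is in part built in and was not tested. Of the 7, Ccl17 and Cish also stand in the STAT6 list below, and Nfil3 and Socs3 in a STAT3 list. With the batch as a block 7 rose and Bcl6 fell, where 0.756% of all genes rose and 0.187% fell. The list median was 0.87 on the log2 scale, against 0.00 over all genes tested, and within batches 1, 2 and 3 it was 0.60, 1.01 and 0.58, and without AlloTem 2 it was 0.57. Cish, a STAT-induced inhibitor of cytokine receptors, was at 3.71, 3.80 and 1.79 CPM in LPS and at 259.8, 309 and 205 CPM in AlloTem. The lowest AlloTem library was thus far above the highest LPS library, and DC only lay at 2.13, 1.88 and 1.47 CPM. This was an 83.4-fold rise (log2 6.38 ± 0.71 SE, 95% interval 4.81 to 7.95, edgeR adjusted p = 0.00534), with log2 ratios of 5.95, 6.17 and 6.49 within the batches. Without LPS 2 the adjusted p of Cish was 0.0517.

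Socs3, a feedback inhibitor induced by STAT3 and other STATs, was at 142, 89.8 and 142 CPM in LPS and 1181, 913 and 493 CPM in AlloTem. The groups did not overlap, and AlloTem 3 was the lowest of its group. Socs3 rose 6.91-fold (log2 2.79 ± 0.47 SE, edgeR adjusted p = 0.0405), a call lost with the batch as a block (adjusted p = 0.0613). Omitting 1 library ended it in 5 of 6 fits, and without AlloTem 3 the adjusted p was 0.0331. Osm, which encodes the IL-6 family cytokine oncostatin M, was at 7.73, 4.63 and 2.63 CPM in LPS and 54.1, 45.6 and 32.5 CPM in AlloTem. Its rise was 8.83-fold (log2 3.14 ± 0.45 SE, edgeR adjusted p = 0.0160), and without AlloTem 2, LPS 2 or LPS 3 the adjusted p was 0.0507, 0.125 or 0.0615.

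Nfil3, a transcription factor with a basic leucine zipper, was at 48.4, 35.4 and 31.2 CPM in LPS and 214, 224 and 162 CPM in AlloTem. It rose 5.21-fold with a narrow spread in both groups (log2 2.38 ± 0.21 SE, edgeR adjusted p = 0.00140). Id1, an inhibitor of basic helix-loop-helix factors, was at 3.39, 1.60 and 2.02 CPM in LPS and 56.9, 31.9 and 29 CPM in AlloTem, a 16.8-fold rise (log2 4.07 ± 0.53 SE, edgeR adjusted p = 0.0107). Without LPS 2 or LPS 3 the adjusted p of Id1 was 0.0837 or 0.0642. The kinase Pim3 was at 47.6, 38.5 and 41.5 CPM in LPS and 64, 78 and 84.2 CPM in AlloTem and rose 1.77-fold (edgeR adjusted p = 0.0408). Socs1, the inhibitor shared by interferon gamma and IL-4 signalling, was at 9.68, 7.78 and 3.75 CPM in LPS and 91, 242 and 93.1 CPM in AlloTem. Its groups did not overlap, yet it missed the threshold (log2 4.33 ± 0.79 SE, edgeR adjusted p = 0.0529). The STAT5 targets Socs2 (log2 1.01 ± 0.45 SE) and Myc (0.44 ± 0.19) and the receptor chain Il2ra (1.33 ± 0.51) were not called, with edgeR adjusted p of 0.765, 0.726 and 0.584.

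**Figure D2:**
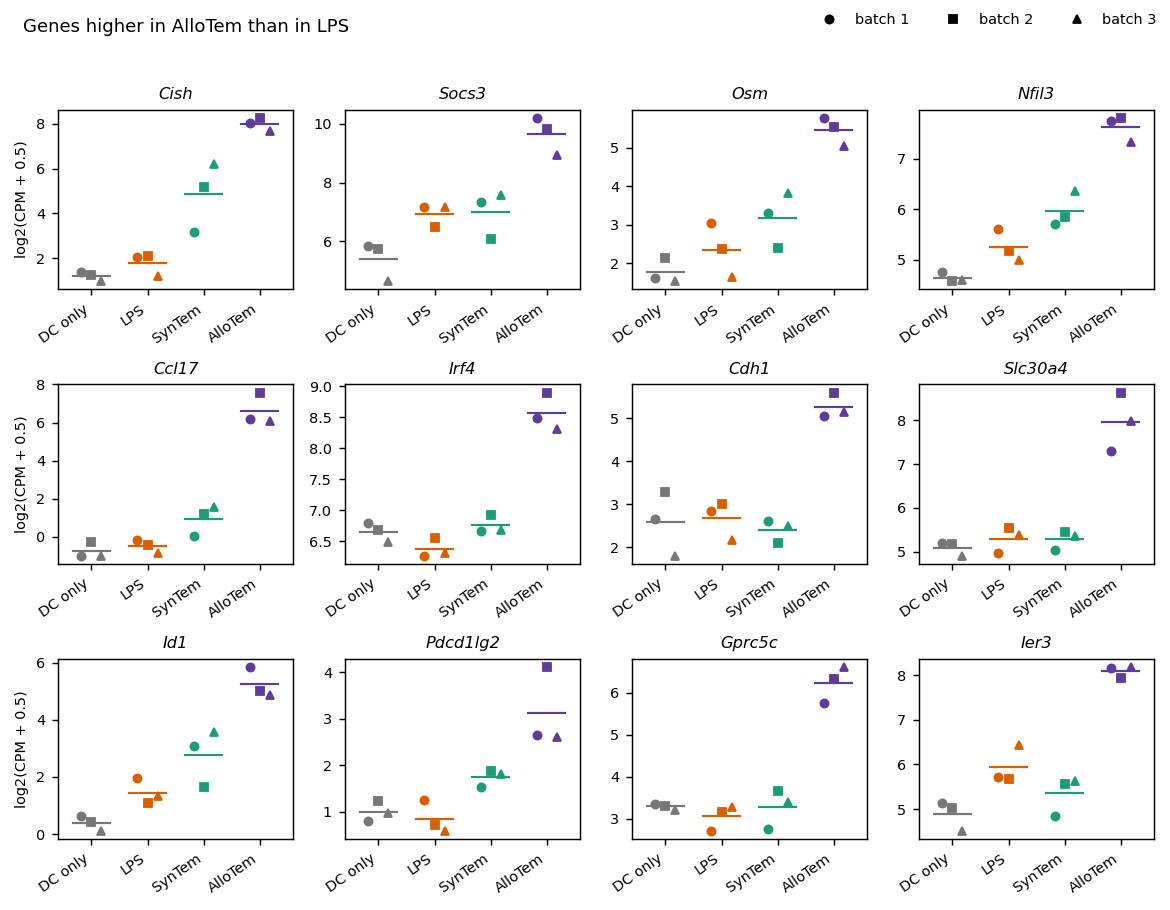
Each panel shows 1 gene, with log2(CPM + 0.5) for the 12 libraries on the vertical axis and the 4 groups on the horizontal axis; the marker shape gives the batch and the line the group mean. In all 12 panels the 3 AlloTem libraries lie above the 3 LPS libraries, and the LPS libraries lie nearer to DC only than to AlloTem.

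Targets of STAT6, the factor activated by IL-4 and IL-13, formed a second group. Of 24 tested members of that list, 5 rose (Ccl17, Irf4, Cdh1, Cish and Slc30a4) and none fell, where 0.395% of all genes rose. Differences were positive for 22 of 24, against 48.9% of all genes. The median was 1.15, and 0.94, 1.51 and 1.13 within batches 1, 2 and 3. With the batch as a block 8 members rose, adding Egr2, Clec10a and Flt1, where 0.756% of all genes rose. Cish and Ccl17 stand in both the STAT5 and the STAT6 list, so these lists are not independent. The STAT6 list was also chosen with earlier results of these data known, so its counts are in part built in and were not tested.

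Ccl17, a chemokine for T cells that bear CCR4, was nearly absent from LPS (0.377, 0.237 and 0.0560 CPM) and present in AlloTem (72.7, 189.99 and 66 CPM). AlloTem 2 had the highest level, and DC only lay at 0, 0.343 and 0 CPM. The fitted difference was 8.92 ± 0.88 on the log2 scale (SE, 95% interval 6.96 to 10.89, edgeR adjusted p = 0.00338). Irf4, a transcription factor of type 2 conventional DCs, had the smallest p of all genes. It was at 76.2, 93.5 and 78.9 CPM in LPS, at 111, 102 and 89 CPM in DC only and at 358, 477 and 316 CPM in AlloTem. Irf4 rose 4.63-fold over LPS (log2 2.21 ± 0.16 SE, edgeR adjusted p = 0.000544), with log2 ratios of 2.22, 2.35 and 1.99 within the batches. In a list of 17 tested markers of type 2 conventional DCs, 12 differences were positive and 5 negative (median 0.21). Irf4 was its 1 rise, where 0.395% of all genes rose. With the batch as a block Cd4 and Clec10a rose as well, where 0.756% of all genes rose.

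Slc30a4, a zinc exporter, was at 30.7, 46.2 and 41.2 CPM in LPS and 157, 398 and 252 CPM in AlloTem and rose 6.82-fold (edgeR adjusted p = 0.00468). Cdh1, which encodes the adhesion protein E-cadherin, was at 6.72, 7.54 and 3.98 CPM in LPS and 32.8, 47.9 and 35.1 CPM in AlloTem. It rose 6.35-fold (log2 2.67 ± 0.38 SE, edgeR adjusted p = 0.0152), and without LPS 1, LPS 2, LPS 3 or AlloTem 2 the adjusted p lay between 0.0507 and 0.0822. The IL-4 receptor chain Il4ra itself was at 111, 148 and 80.9 CPM in LPS and 211, 267 and 135 CPM in AlloTem. These levels overlapped, and the gene was not called (log2 0.85 ± 0.27 SE, edgeR adjusted p = 0.385). Ccl22, the other CCR4 ligand, was at 59.3, 161 and 43.2 CPM in LPS and 139, 423 and 46.5 CPM in AlloTem, with overlapping groups and a difference of 1.21 ± 0.77 (edgeR adjusted p = 1.000).

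The promoters of Cish, Ccl17 and Socs3 are shown because they rose together in AlloTem and hold motifs of the STAT type in the window from 250 bases before to 50 bases after the transcription start. They are RefSeq sequences in build GRCm38.p6, read 5′ to 3′ on the strand of the gene: Cish chr9:107296409-107296708 on the plus strand, Ccl17 chr8:94810203-94810502 on the plus strand and Socs3 chr11:117969317-117969616 on the minus strand. Capitals mark matches to TTCNNNGAA (the STAT5 type) and TTC and GAA with 4 bases between (the STAT6 type). Both patterns read the same on either strand.
Cish: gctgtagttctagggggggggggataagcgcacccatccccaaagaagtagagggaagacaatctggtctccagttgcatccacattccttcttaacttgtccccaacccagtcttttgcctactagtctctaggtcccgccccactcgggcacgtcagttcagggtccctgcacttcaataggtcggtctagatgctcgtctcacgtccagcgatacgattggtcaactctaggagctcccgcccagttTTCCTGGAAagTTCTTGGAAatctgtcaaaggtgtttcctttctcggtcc
Ccl17: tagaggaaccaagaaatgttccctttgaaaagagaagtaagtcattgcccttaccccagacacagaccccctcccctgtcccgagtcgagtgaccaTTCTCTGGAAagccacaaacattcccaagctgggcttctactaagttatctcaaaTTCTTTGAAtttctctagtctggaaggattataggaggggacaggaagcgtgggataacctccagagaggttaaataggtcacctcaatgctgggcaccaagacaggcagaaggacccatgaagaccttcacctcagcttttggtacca
Socs3: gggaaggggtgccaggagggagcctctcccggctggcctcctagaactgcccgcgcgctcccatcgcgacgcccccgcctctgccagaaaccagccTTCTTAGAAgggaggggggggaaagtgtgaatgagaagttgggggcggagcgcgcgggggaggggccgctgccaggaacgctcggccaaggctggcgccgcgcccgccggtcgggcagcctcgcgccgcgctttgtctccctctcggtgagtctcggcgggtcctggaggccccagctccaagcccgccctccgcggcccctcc
The Cish window held 2 matches of the STAT5 type, TTCCTGGAA and TTCTTGGAA, at 0 and 11 bases from the start. In the Ccl17 window there was 1 match of the STAT6 type, TTCTCTGGAA at -154, and 1 of the STAT5 type, TTCTTTGAA at -99. The Socs3 window held 1 match of the STAT5 type, TTCTTAGAA at -154. Windows of Irf4, Nfil3 and Pim3, which also rose, held neither pattern. The Cish and Socs3 windows lie inside the gene spans given further below, so distances from the start depend on the annotation chosen.

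A RefSeq promoter was found for 38 of the 57 genes that rose. The STAT5 type occurred in 6 of the 38 (15.8%: Ccl17, Cish, Gm19951, Orai1, Plscr1 and Socs3), against 8.43% of 10158 promoters of tested genes and 1 of 6 promoters (16.7%) of genes that fell. The STAT6 type occurred in 4 of the 38 (10.53%: Ccl17, Cd209e, Gm19951 and Pdcd1lg2), against 6.67% and 0 of the 6 that fell. The NF-kB type, GGGA and TTCC with 2 bases between, occurred in 0 of the 38, against 1.78%. The interferon response type, TTTC and TTTC with 2 bases between, occurred in 1 of the 38 (2.63%) against 4.08% and 2 of the 6 that fell (33.3%), and the AP-1 type TGACTCA also in 1 (2.63%) against 4.46%. All patterns were searched on both strands, and matches of different patterns can share bases. These are counts of letters in short windows of few genes; they show no binding and nothing particular to the genes that rose.

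Beyond the STAT lists, genes of signalling, adhesion and transcription rose; the grouping by known role was made after their values were seen. Gprc5c, an orphan G protein-coupled receptor, was at 6.09, 8.43 and 9.30 CPM in LPS and 54.1, 80.5 and 97.2 CPM in AlloTem. It rose 9.72-fold with no overlap between groups (log2 3.28 ± 0.28 SE, edgeR adjusted p = 0.00132). Hbegf, a ligand of the EGF receptor, was at 0.314, 0.178 and 0.336 CPM in LPS and 8.17, 21.1 and 4.25 CPM in AlloTem (log2 5.30 ± 0.88 SE, edgeR adjusted p = 0.0333). Without AlloTem 3 its adjusted p was 0.0254, and omitting any other AlloTem or LPS library ended the call (0.0535 to 0.195). The secreted matrix protein Ecm1 was at 1.26, 1.48 and 2.18 CPM in LPS and 28.3, 8.83 and 24.6 CPM in AlloTem, with AlloTem 2 the lowest of its group. Ecm1 rose 12.5-fold (log2 3.64 ± 0.50 SE, edgeR adjusted p = 0.0108).

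Surface receptors among the rises included Pdcd1lg2, which encodes the PD-1 ligand PD-L2. It was at 1.89, 1.13 and 1.01 CPM in LPS and 5.79, 16.7 and 5.62 CPM in AlloTem and rose 6.98-fold (edgeR adjusted p = 0.0289). Cd274, which encodes the other ligand PD-L1, was at 105, 84.6 and 36.2 CPM in LPS and 506, 573 and 156 CPM in AlloTem and was not called (log2 2.45 ± 0.60 SE, edgeR adjusted p = 0.150). Its antisense neighbour AC119228.1 was called higher, and without knowledge of the strand setting reads of the pair cannot be told apart. Cd209e, a C-type lectin of a family of close copies, was at 1.38, 1.25 and 0.504 CPM in LPS and 4.65, 11.4 and 7.84 CPM in AlloTem (log2 2.93 ± 0.51 SE, edgeR adjusted p = 0.0405). Without AlloTem 1 its adjusted p was 0.0350, and omitting any other AlloTem or LPS library ended the call (0.0756 to 0.176). The Wnt receptor Fzd7 was at 10.7, 8.90 and 15.5 CPM in LPS and 47.3, 56.9 and 42.9 CPM in AlloTem, a 4.19-fold rise (edgeR adjusted p = 0.00468). The nucleotide receptor P2ry1 rose 5.44-fold and the ubiquitin ligase Rnf24 4.13-fold (edgeR adjusted p = 0.0333 and 0.0111). Exons of other genes on the opposite strand cover 23.1% and 16.5% of their exon bases. Omitting any 1 AlloTem or LPS library ended the call of P2ry1 (edgeR adjusted p 0.0563 to 0.195). Orai1, the pore of the store-operated calcium channel, was at 87.7, 72 and 74 CPM in LPS and 153, 148 and 140.5 CPM in AlloTem. Its 1.89-fold rise was small but larger than the spread (log2 0.92 ± 0.09 SE, edgeR adjusted p = 0.00158).

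Transcription factors and early response genes rose too. Ier3, an immediate early gene that restrains cell death, was at 52.1, 50.6 and 85.6 CPM in LPS and 287, 246 and 289.9 CPM in AlloTem, a 4.37-fold rise (edgeR adjusted p = 0.0107; without LPS 2 it was 0.0748). Fosl2, a subunit of AP-1, was at 84, 49.7 and 42 CPM in LPS and 272, 241 and 147 CPM in AlloTem, a 3.76-fold rise (edgeR adjusted p = 0.0293). Ier3 and Fosl2 were the 2 of 35 tested immediate early genes that rose, and none fell, where 0.395% of all genes rose. With the batch as a block 4 of these genes rose, where 0.756% of all genes did. The aryl hydrocarbon receptor Ahr was at 48.4, 55.8 and 40.3 CPM in LPS and 105, 201 and 152 CPM in AlloTem, and the homeobox factors Hhex and Hlx rose 3.52-fold and 2.23-fold. The edgeR adjusted p was 0.0111 for Ahr, 0.0107 for Hhex and 0.0388 for Hlx. Arid5a, a protein that stabilises Il6 and Stat3 transcripts, was at 80.6, 75.4 and 81.1 CPM in LPS and 192, 375 and 264 CPM in AlloTem, a 3.50-fold rise (edgeR adjusted p = 0.0180). Xbp1, a factor of the unfolded protein response, was at 194, 150.1 and 160.2 CPM in LPS and 337, 253 and 304 CPM in AlloTem and rose 1.77-fold (edgeR adjusted p = 0.0185). It was the 1 of 28 tested genes of that response that rose without the block, where 0.395% of all genes rose. With the block Xbp1 rose and Herpud1 fell.

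Interferon gamma targets lay largely on the AlloTem side, mostly without passing the test. Of 33 tested members, 29 differences were positive, against 48.9% of all genes. The median was 1.29, and the medians within batches 1, 2 and 3 were 0.74, 1.43 and 1.16. Without AlloTem 2 the median was 0.56. Only Gbp11, a guanylate-binding protein with close copies, was called, at 0 counts in the 3 LPS libraries and 1.66, 0.744 and 2.36 CPM in AlloTem. Against a floor of 3 counts over the LPS group this was at least 27.0-fold higher (edgeR adjusted p = 0.0405). Omitting any 1 AlloTem or LPS library ended that call (edgeR adjusted p 0.0507 to 0.140). Over all genes 0.395% rose. Cxcl9, a chemokine for CXCR3-bearing T cells, was at 18.8, 70.9 and 21.4 CPM in LPS and 59.2, 553 and 48.4 CPM in AlloTem. AlloTem 2 carried most of that difference, which was 2.57 ± 1.36 on the log2 scale (edgeR adjusted p = 0.915). Cxcl10 showed the same library standing out, at 162, 595 and 74.8 CPM in AlloTem against 96.9, 114 and 49.96 CPM in LPS (edgeR adjusted p = 1.000). Irf1, an early target of interferon gamma, was at 326, 189.8 and 207 CPM in LPS and 732, 1233 and 507 CPM in AlloTem with no overlap (log2 1.77 ± 0.47 SE, edgeR adjusted p = 0.208). Of 35 tested targets of type I interferon none was called, which at 0.451% of all genes is near the background. Among them 21 differences were positive and the median was 0.01. That median was -0.67 without AlloTem 2 and 0.78 without LPS 2, and the difference between the interferon lists was not tested. Among these, Ifit1 differed by -0.12 ± 0.86, Isg15 by 0.07 ± 1.19 and Irf7 by 0.27 ± 0.91 on the log2 scale, each with an edgeR adjusted p of 1.00.

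Genes of the NF-kB pathway and of LPS sensing differed little in their medians. None of the 29 NF-kB targets and feedback genes was called. An unadjusted edgeR p under 0.05 was found for 2 of them, against 937 of 14413 over all genes tested. Since 0.451% of all genes were called, a count of 0 in a list of this size is near the background. The median was 0.06, with -0.02, 0.15 and -0.26 within batches 1, 2 and 3. Against DC only, the same 29 genes had a median of 0.52 in AlloTem and 0.52 in LPS. These values share the DC only libraries and are given side by side without a test. Nfkbia, the NF-kB inhibitor that NF-kB induces, was at 1410.5, 1085 and 1119 CPM in LPS and 1244, 1078 and 760.3 CPM in AlloTem, with overlapping groups. Its difference was -0.23 ± 0.38, with a 95% interval from -1.07 to 0.61 and an edgeR adjusted p of 1.000. None of 36 genes of LPS sensing and Toll-like receptor signalling was called either, again near the background (median -0.02). Of the 36, 5 had an unadjusted edgeR p under 0.05, against the same 937 of 14413 over all genes tested. Tlr4 was at 6.91, 6.89 and 5.21 CPM in LPS and 15.7, 9.68 and 9.06 CPM in AlloTem, and Cd14 at 79.1, 29 and 38.7 and 77.5, 26.1 and 19.4 CPM. The groups did not overlap for Tlr4 and overlapped for Cd14. With 1 library omitted, the log2 difference of Tlr4 was 0.56 to 1.01, and it was not called (edgeR adjusted p 0.225 to 0.772).

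Inflammatory cytokines were present after both stimuli. Il1b was at 295, 299.96 and 115 CPM in DC only, 971, 743 and 432 CPM in LPS and 1044, 1059.8 and 453 CPM in AlloTem. Library 3 was the lowest in each group, and the difference between AlloTem and LPS was 0.25 ± 0.64 on the log2 scale (95% interval -1.17 to 1.68, edgeR adjusted p = 1.000). Il6 was at 5.13, 4.85 and 2.01 CPM in DC only, 20.6, 14 and 9.30 CPM in LPS and 36.6, 40.3 and 22.6 CPM in AlloTem. The AlloTem libraries lay above those of LPS, yet the difference of 1.18 ± 0.47 was not called (edgeR adjusted p = 0.630). Il12b, a subunit of IL-12 and IL-23, was at 29.7, 18.2 and 12 CPM in LPS and 63.9, 35.6 and 9.91 CPM in AlloTem, and these overlapped (log2 0.87 ± 0.78 SE, edgeR adjusted p = 1.000). Tnf was at 276, 144 and 159 CPM in LPS and 142, 125 and 59.6 CPM in AlloTem (log2 -0.83 ± 0.63 SE, 95% interval -2.24 to 0.58, edgeR adjusted p = 1.000). Acod1, which makes the antimicrobial metabolite itaconate, leaned toward LPS, as Tnf did. It was at 144, 77.8 and 62.9 CPM in LPS, 29.4, 24.4 and 3.35 CPM in AlloTem and 13.2, 10.7 and 1.71 CPM in DC only. The groups of Acod1 did not overlap, but the spread was wide and the gene was not called (log2 -2.31 ± 1.27 SE, edgeR adjusted p = 0.943). The whole list of 17 tested inflammatory cytokines had Osm as its 1 rise, no fall and a median of 0.87 (0.58 without AlloTem 2). Of 15 tested chemokines Ccl17 alone rose and none fell (median 1.14, and 0.45 without AlloTem 2 or 0.75 without LPS 3). Over all genes 0.395% rose, beside the 1 rise in each of these short lists. Il27 (0.72 ± 0.83) and Il10 (1.94 ± 0.97) were low in both groups and not called, and Ccl5 (-0.03 ± 1.22) was highest in library 1 of both groups.

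Of 40 tested genes of DC maturation, 2 rose (Ccl17 and Pdcd1lg2) and none fell, where 0.395% of all genes rose. The median was 0.43, with 0.50, 0.55 and 0.04 within batches 1, 2 and 3, and it was 0.24, 0.24 and 0.27 without AlloTem 1, AlloTem 2 and LPS 3 and 0.72 without AlloTem 3. The costimulatory genes Cd80 and Cd86 were at 51.4, 95 and 61.2 and 114, 174 and 117 CPM in LPS and 81.7, 179 and 54.7 and 137, 249.7 and 105 CPM in AlloTem. Differences were 0.60 ± 0.37 and 0.28 ± 0.30 (edgeR adjusted p = 1.000 and 1.000), and AlloTem 2 was the highest library of both. Without AlloTem 2 the differences of Cd40, Cd80 and Cd86 were -0.11, -0.02 and -0.15. Cd40 was at 117, 184 and 136 CPM in LPS and 156, 395 and 115 CPM in AlloTem, again highest in AlloTem 2 (log2 0.61 ± 0.51 SE, edgeR adjusted p = 1.000). Ccr7, a chemokine receptor of migrating DCs, was at 464, 446 and 206 CPM in LPS, 500.1, 331 and 152 CPM in AlloTem and 155, 160.3 and 142 CPM in DC only (log2 -0.18 ± 0.54 SE between AlloTem and LPS, edgeR adjusted p = 1.000). None of 29 genes of CD40 and TNF receptor signalling was called (median 0.09, and -0.08 to 0.30 with 1 library omitted). At 0.451% of all genes called, this count is near the background. An unadjusted edgeR p under 0.05 was found for 5 of the 29, against 937 of 14413 over all genes tested.

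Against DC only, 194 genes rose and 59 fell in AlloTem (1.35% and 0.409% of genes tested, 1.76% in all); with the block 286 rose and 134 fell (1.98% and 0.930%, 2.91% in all). Of the fits without the block, the count of 253 fell to 42 without DC only 1, 43 without DC only 2 and 122 without DC only 3. It was 114 without AlloTem 1, 92 without AlloTem 2 and 16 without DC only 2 and SynTem 2. In LPS no gene was called against DC only by edgeR or limma voom, whereas DESeq2 called 10. By edgeR 531 of 14413 genes had an unadjusted p under 0.05, a share below the 0.05 that arises with no difference. Il1b differed from DC only by 1.60 ± 0.66 in LPS and 1.85 ± 0.66 in AlloTem (log2 ± SE), and Il12b by 2.27 ± 0.83 and 3.14 ± 0.85. Il6 differed by 1.88 ± 0.49 in LPS and 3.06 ± 0.51 in AlloTem, the latter an edgeR call (adjusted p = 0.0178). Acod1 differed by 3.48 ± 1.35 and 1.17 ± 1.27. Cish, in contrast, differed by 0.76 ± 0.69 in LPS and 7.15 ± 0.74 in AlloTem (edgeR adjusted p = 0.00214), and Irf4 by -0.28 ± 0.16 and 1.93 ± 0.16 (adjusted p = 0.000960). The absence of calls in LPS does not show that LPS had no effect, since the interval of single genes was wide.

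**Figure D3:**
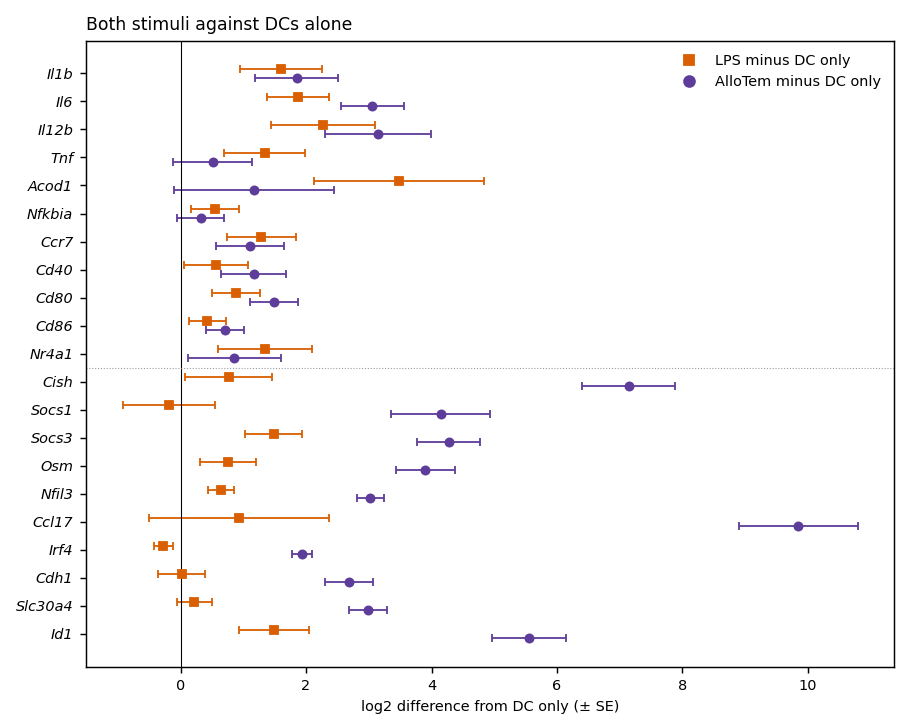
The horizontal axis gives the log2 difference from DC only with its standard error, for LPS (orange squares) and AlloTem (purple circles), and each row is 1 gene; both differences use the same 3 DC only libraries. For the 11 genes above the dotted line, from Il1b to Nr4a1, AlloTem differs from LPS by between -2.31 (Acod1) and 1.18 (Il6). For the 10 genes below it, from Cish to Id1, AlloTem lies to the right of LPS by at least 2.21 (Irf4). The rows were picked and grouped with their values known, so the gap between the groups follows from the choice. Named genes within that gap, such as Ccl22 (1.21), are not shown.

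Genes that fell in AlloTem were fewer and changed less. Sgk1, a kinase induced by glucocorticoids and serum, was at 158, 98.2 and 109 CPM in LPS, 106, 108 and 102 CPM in DC only and 49.9, 37.1 and 41.3 CPM in AlloTem. It fell 2.85-fold with no overlap (log2 -1.51 ± 0.25 SE, edgeR adjusted p = 0.0299), and omitting any 1 of the 6 libraries ended the call (adjusted p 0.0535 to 0.129). Bahcc1 was at 157, 181 and 165 CPM in LPS and 82.1, 71 and 78.3 CPM in AlloTem and fell 2.17-fold (edgeR adjusted p = 0.0247), with adjusted p of 0.0559 to 0.129 in those 6 fits. Il6st, which encodes gp130, the receptor chain shared by IL-6, oncostatin M and related cytokines, was at 464, 564 and 542 CPM in LPS and 298, 273 and 352 CPM in AlloTem. It was highest in DC only (682, 721 and 619 CPM). Il6st fell 1.70-fold from LPS (log2 -0.77 ± 0.12 SE, edgeR adjusted p = 0.0185), a call lost without AlloTem 1, AlloTem 2, LPS 2 or LPS 3 (adjusted p 0.0653 to 0.125).

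The small GTPases Rab7b and Rab32, which act in endosomal and organelle traffic, also fell. Rab7b was at 234, 269 and 196 CPM in LPS and 124, 103 and 136 CPM in AlloTem, and Rab32 at 203, 181 and 198 and 142, 112 and 113 CPM. The falls were 1.93-fold and 1.59-fold (edgeR adjusted p = 0.0170 and 0.0388). Evi2b, a membrane protein of blood cells, was at 359, 380.2 and 369 CPM in LPS and 231, 239 and 224 CPM in AlloTem, a 1.60-fold fall (edgeR adjusted p = 0.0107; without LPS 2 it was 0.0765). Exons of Evi2 on the same strand cover 98.5% of its exon bases, so its count is uncertain. The other falls were the predicted genes F630028O10Rik (log2 -2.43 ± 0.27 SE) and Gm15922 (-0.91 ± 0.12). Named falls that missed the threshold were Kcne3 (-1.56 ± 0.29, edgeR adjusted p = 0.0502), Il16 (-0.61 ± 0.12, 0.0536), Bcl6 (-1.09 ± 0.21, 0.0536) and Atp10d (-0.78 ± 0.16, 0.0619). The transcriptional repressor Bcl6 was at 253, 206 and 198 CPM in LPS and 104, 88.5 and 115 CPM in AlloTem with no overlap.

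**Figure D4:**
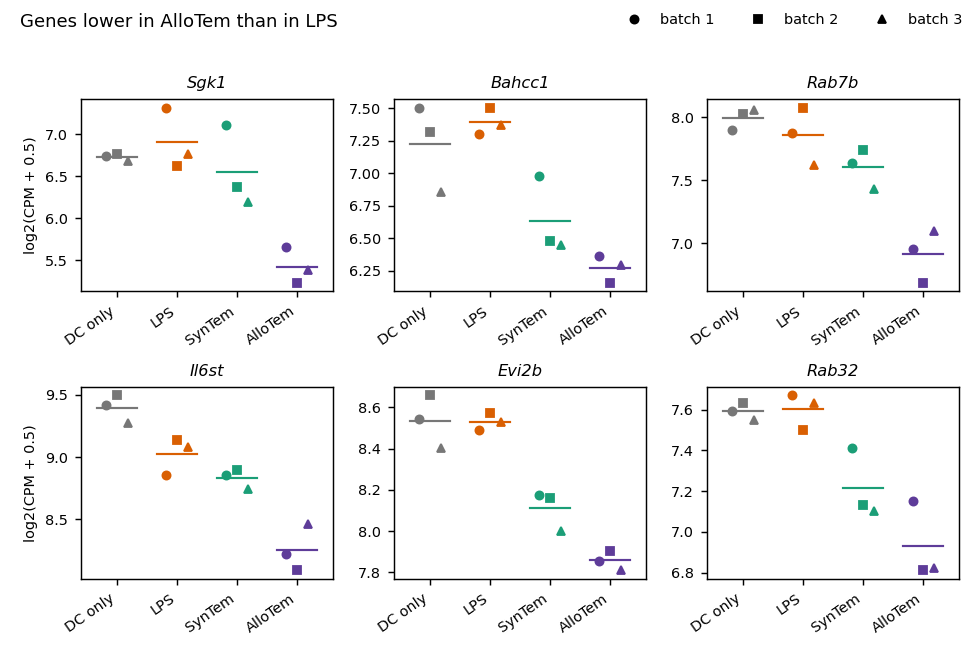
Each panel shows 1 gene that fell, with log2(CPM + 0.5) for the 12 libraries on the vertical axis, the 4 groups on the horizontal axis, marker shapes for the batches and lines for group means. The 3 AlloTem libraries lie below the 3 LPS libraries in each of the 6 panels.

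The batch block added 57 rises and 19 falls. Among them the T cell and DC surface gene Cd4 rose by 1.93 ± 0.29 (log2 ± SE with the block, edgeR adjusted p = 0.0195), and its SynTem levels, 22.5, 30.3 and 24.6 CPM, were above those of AlloTem, 12.7, 12.8 and 9.35 CPM. Egr2, an early growth response factor, was at 22.1, 8.31 and 8.01 CPM in LPS and 156, 115 and 51 CPM in AlloTem and rose by 3.14 ± 0.47 (edgeR adjusted p = 0.0304). The Notch ligand Dll4 rose by 2.51 ± 0.31 (adjusted p = 0.00798), from 1.38, 3.98 and 1.74 CPM in LPS to 9.83, 27.4 and 6.18 CPM in AlloTem. Hgf, Gadd45g, Egln3, Cd209c, Ppp1r3d, Alpk2 and AA467197 rose with the block by between 1.95 and 2.77 on the log2 scale, the limits being AA467197 and Cd209c. With the block Bcl6 fell, at a log2 difference of -1.08 ± 0.18 (edgeR adjusted p = 0.0281), and so did Snai1 (-1.47 ± 0.28) and Kcne3 (-1.55 ± 0.26). The death gene Bbc3 was at 63.4, 57 and 76.7 CPM in LPS and 41.6, 25.9 and 41.7 CPM in AlloTem and fell with the block as well (-0.86 ± 0.15, adjusted p = 0.0290). Zbtb32, Snx22, Card10, Lrrc25, Stard5 and Il16 also fell with the block, with log2 differences between -1.50 (Zbtb32) and -0.62 (Il16). Exons of Il16 and Stard5 overlap each other on opposite strands (15.3% and 22% of their bases), as do those of Snx22 and Ppib (28.5% of Snx22).

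The following housekeeping and antigen presentation lists held no called gene, which at 0.451% of all genes is near the background for lists of this size. No gene was called of 16 in MHC class II presentation (median -0.11), 22 in MHC class I presentation, 34 in oxidative phosphorylation (-0.01), 24 in cholesterol synthesis (0.04), 30 in ribosome biogenesis and translation, 18 in heat shock and 37 in the cell cycle (-0.01). Of 31 genes of glycolysis and hypoxia none was called without the block and 1 rose with it (Egln3), where 0.756% of all genes did. The STAT3 list of 19 tested genes had 2 rises (Nfil3 and Socs3) and 1 fall (Il6st), against 0.395% and 0.0555% of all genes. The median of that list was 0.34. With the block it had 1 rise (Nfil3) and 2 falls (Bcl6 and Il6st), and its median was 0.21, 0.15 and 0.19 without AlloTem 1, AlloTem 2 and LPS 3 and 0.51 without AlloTem 3. Of 26 survival and death genes Ier3 rose, where 0.395% of all genes did. With the block Ier3 and Bcl2 rose and Bbc3 fell, against 0.756% and 0.187% of all genes.

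Markers of other cells moved with the comparison as well. All 31 tested T cell markers had positive differences (median 1.05, and 2.55 without LPS 1), against 48.9% of all genes. None of these markers was called without the block, and 2 rose with it (Cd4 and Bcl11b), where 0.756% of all genes did. The summed level of the markers was 369.9, 164 and 109 CPM in LPS and 546, 265 and 236 CPM in AlloTem. In SynTem it was 527, 1005 and 819 CPM. Cd3e, a chain of the T cell receptor complex, was at 1.26, 0.237 and 0.336 CPM in LPS and 6.55, 2.93 and 3.92 CPM in AlloTem, and none of these 31 was at 0 in all LPS libraries. Among genes that rose, Ccl17 was at 0.520, 1.77 and 2.49 CPM in SynTem, Irf4 at 101, 121 and 102 CPM, Socs3 at 160.5, 67.6 and 190.4 CPM, Cish at 8.62, 35.5 and 72.5 CPM and Gbp11 at 1.04, 1.01 and 1.60 CPM. The SynTem libraries lay below those of AlloTem for the first 4 of these genes and overlapped them for Gbp11. Cd40lg, the T cell ligand of CD40, had 0 counts in LPS and 3.75, 4.27 and 2.03 CPM in AlloTem, at least 56.2-fold higher against 3 counts over the LPS group (edgeR adjusted p = 0.0107; without LPS 2 it was 0.0507). Ly6c1 had 1 count over the LPS libraries and 252 over AlloTem, a ratio of 204 with an exact counting interval of 36.4 to 8105 (edgeR adjusted p = 0.0446). Reads of Ly6c1 can be shared with its close copy Ly6c2.

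In a list of 13 tested cytokines and receptors of activated T cells, kept apart from the markers above, Cd40lg rose and none fell. Over all genes 0.395% rose. The median of the list was 1.33 (0.88 without LPS 3). Csf2, which encodes GM-CSF, was at 0.377, 0.178 and 0.280 CPM in LPS and 3.94, 8.09 and 1.46 CPM in AlloTem, with no overlap, and was not called (log2 3.98 ± 1.01 SE, edgeR adjusted p = 0.165). Il13 was at 1.19, 0.119 and 0 CPM in LPS and 5.13, 5.41 and 1.56 CPM in AlloTem, also without overlap and not called (log2 3.21 ± 1.07 SE, edgeR adjusted p = 0.415). The levels of Ifng, which encodes interferon gamma, overlapped, at 3.46, 0.119 and 0 CPM in LPS and 5.79, 1.54 and 0 CPM in AlloTem. Il21 was at 0 in LPS and 1.71, 1.84 and 0.661 CPM in AlloTem, 87 counts in all and at least 23.5-fold higher, and missed the threshold (edgeR adjusted p = 0.0701). Transcripts too scarce to test were also on the AlloTem side. Il3 had 66 counts over AlloTem and 0 over LPS, at least 17.8-fold higher. Il2 had 22 counts, all in AlloTem 2, and Il5 12 counts, against 0 in LPS (at least 5.95-fold and 3.24-fold). Il4, the ligand upstream of STAT6, had 39, 44 and 10 counts in AlloTem 1, 2 and 3 and 4, 1 and 1 in LPS 1, 2 and 3. These floors cover counting error only.

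Basophil and mast cell markers leaned the same way. Of 12 tested, 11 differences were positive (median 2.61, and 1.35 without AlloTem 1), against 48.9% of all genes. The protease Cpa3 was the 1 rise, where 0.395% of all genes rose. Cpa3 went from 0.628, 0.712 and 0.224 CPM to 47.3, 4.56 and 23.4 CPM (log2 5.58 ± 1.00 SE, edgeR adjusted p = 0.0481, and 0.0879 with the block). Without Kit, which the DC libraries carried at 182, 451 and 299 CPM in LPS, the marker sum was 61.1, 21.3 and 5.94 CPM in LPS and 315, 60.6 and 77.3 CPM in AlloTem. The part of T cell or basophil RNA in the rises above was not tested. Neutrophil, B cell and NK cell lists held no called gene (medians -0.18, -0.34 and -0.09), which at 0.451% of all genes is near the background. The NK cell median was 3.22 without LPS 1 and -1.99 without AlloTem 1, and the neutrophil median 1.12 and -0.93. In these sorted cells, fewer or more cells of a type and less or more RNA per cell cannot be told apart.

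In coordinates of build GRCm38, Cish (ENSMUSG00000032578) lies on chromosome 9 from 107296026 to 107302784, Ccl17 (ENSMUSG00000031780) on chromosome 8 from 94810453 to 94812036 and Socs3 (ENSMUSG00000053113) on chromosome 11 from 117966079 to 117970047. Irf4 (ENSMUSG00000021356) lies on chromosome 13 from 30749226 to 30766976, Nfil3 (ENSMUSG00000056749) on chromosome 13 from 52967209 to 52981073 and Osm (ENSMUSG00000058755) on chromosome 11 from 4236420 to 4241026. On the same build, Id1 (ENSMUSG00000042745) is on chromosome 2 from 152736251 to 152737410, Sgk1 (ENSMUSG00000019970) on chromosome 10 from 21882184 to 21999903 and Il6st (ENSMUSG00000021756) on chromosome 13 from 112464070 to 112510086. All of these are protein-coding genes, and the values above count reads over whole genes.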

How the data were processed

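The authors deposited raw counts per gene, whole numbers without normalization, for 57009 Ensembl identifiers in 12 libraries; a second deposited table gave batch numbers. Per the labels' protocols, DNase-treated RNA went into TruSeq libraries read as single ends of 50 bases. Reads were placed on build mm10 (per the submitters' processing notes); which aligner, counting tool, annotation release and strand setting were used is not given in the sources used here. GENCODE M21 gave symbols for 52028 identifiers. Tools were edgeR 4.0.16 in R 4.3.3, with limma 3.58.1 (voom) and DESeq2 1.42.0 as alternatives.

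Genes were kept by filterByExpr (minimum count 10, minimum total 15), scaled by TMM and tested with robust quasi-likelihood fits of 1 mean per group over all 12 libraries, so that 4 groups shared 1 estimate of the spread; p-values were adjusted by Benjamini-Hochberg over the 14413 genes tested. Standard errors are the log2 difference over the square root of F, and 95% intervals use the t quantile of the fit. Within-batch ratios have 0.5 CPM added to both levels. The text names the 15 largest rises and falls among called genes with a known symbol, at least 5 CPM in the higher group and no overlap, falls made up to 10 by smallest p, 10 each way called with the block alone, 36 genes of a set list (Il23a had too few counts to test) and up to 3 genes a list. The 37 lists hold 788 genes. Members and lists were chosen with earlier results of these data known, so no list was tested. The batch numbers were taken as pairing the libraries: deviations from group means correlated at 0.632, 0.514 and 0.603 between AlloTem and LPS libraries of the same number and between -0.429 and -0.198 otherwise. Scripts were tested on simulated counts. Motifs were searched in RefSeq promoters. Alternatives are listed in the closing section. A gene that the naming rule selects is not reported here.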

Additional observations from a re-analysis of the deposited data

Results flagged for a closer look

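In the SynTem libraries, which enter the fit but no comparison here, 3 of the genes that rose in AlloTem were at more than 4 times the highest DC only library in each of the 3 libraries. Cish was at 8.62 CPM in the lowest and 72.5 CPM in the highest SynTem library, against at most 2.13 CPM in DC only and at least 205 CPM in AlloTem. Cd40lg was at 0.697 to 0.889 CPM in SynTem and at 0 in DC only and LPS. Gbp11 was at 1.01 to 1.60 CPM in SynTem, which overlapped its AlloTem level (lowest library 0.744 CPM), and at 0 in DC only and LPS. These genes were chosen from the calls between AlloTem and LPS, and SynTem was not tested here.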

How the results depend on the processing

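All 65 genes called between AlloTem and LPS kept their direction in every alternative in which they were tested (50 of them under a filter at a mean of 5 CPM). The count of 65 changed to 286 with DESeq2, 9 with the 6 compared libraries alone, 25 without DC only 2 and SynTem 2, 189 with Y-linked transcripts as a covariate and 3 without batch 3 (Irf4, Fzd7 and Nfil3). Leaving out 1 library gave 9 to 55. For the pairing by batch, the replicate block gave 136 calls, 746 with the 6 libraries alone and 198 without DC only 2 and SynTem 2. Other scalings, voom, thinning to the smallest total, other filters and leaving out SynTem gave counts within 1.5 times of 65. Without SynTem the split was 38 higher and 11 lower, with the block and 6 libraries 533 and 213, against 57 and 8. Without batch 3 it was 3 and 0. The cause of these changes was not tested, apart from the loss of libraries. Medians of lists moved by more than the SD of their within-batch values in 151 cases and by less in 305.

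Against DC only, the 253 calls of AlloTem became 677 with DESeq2, 98 with 6 libraries, 420 with the replicate block, 16 without DC only 2 and SynTem 2, 603 with the covariate and 36 without batch 3, and 42 to 323 when 1 library was left out. The 0 calls of LPS became 10 with DESeq2, 11 with the block and 6 libraries, 1 without DC only 2 and SynTem 2 (with or without the block), and 0 to 1 when 1 library was left out.

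Genes that changed sign were never called. Leaving out 1 library moved the log2 difference of Ccl5 to between -1.79 and 1.84, of Ccr7 to between -0.62 and 0.17, of Cd14 to between -1.11 and 0.27 and of Cd40 to between -0.11 and 0.92. It moved Cd80 to between -0.021 and 0.92, Cd86 to between -0.15 and 0.52, Ifit1 to between -1.48 and 0.66, Il1b to between -0.0084 and 0.56, Irf7 to between -0.48 and 1.12 and Isg15 to between -1.49 and 1.30. The Y-linked Uty moved to between -4.09 and 10.002, since it rests on batch 3. Ccl5 was at 0.67 with the covariate and 0.0063 after thinning. Isg15 was at -0.13 with voom, and for the pairing by batch at -0.035, -0.078 and -0.11 with the replicate block over 12 libraries, over the 6 libraries and without DC only 2 and SynTem 2.

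With 3 libraries a group, changes with a wide spread (Acod1, Cxcl9, Cxcl10) were not called, and transcripts near 1 CPM in both groups were limited by counts.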

Other observations

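Several genes that fell from LPS to AlloTem, Kcne3 with the batch block only, lay on average between the 2 in SynTem. Evi2b was at 359, 380.2 and 369 CPM in LPS, 289, 286 and 256 CPM in SynTem and 231, 239 and 224 CPM in AlloTem, and the 3 groups did not overlap. Rab32 was at 169, 139.9 and 137 CPM in SynTem, Bahcc1 at 125, 88.9 and 86.8 CPM and Kcne3 at 5.87, 3.42 and 2.61 CPM, against 142, 112 and 113, 82.1, 71 and 78.3 and 2.52, 2.28 and 2.83 CPM in AlloTem. The SynTem levels of Rab32 and Kcne3 overlapped those of AlloTem. These levels were not tested. Snai1, which fell with the batch as a block, showed another order: 13, 11.1 and 4.51 CPM in DC only, 14.2, 28.3 and 13.8 CPM in LPS, 4.31, 5.19 and 3.02 CPM in SynTem and 6.55, 6.90 and 5.90 CPM in AlloTem.

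Transcripts of interferon beta, which LPS induces through Toll-like receptor 4, were almost absent from all libraries. Ifnb1 had 9 and 5 counts in LPS 2 and LPS 3, 3 in SynTem 3, 1 in AlloTem 2 and 0 elsewhere. Il23a, a subunit of IL-23, had 17, 9 and 10 counts in AlloTem 1, 2 and 3 and 5, 1 and 2 in LPS 1, 2 and 3.

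Rsc1a1, chosen after its values were seen, was listed at 0 in AlloTem 1, 2 and 3 and also at 0 in library 2 of each other group. It was at 11.3, 0 and 8.29 CPM in LPS. Its fall passed the test with the batch as a block (edgeR adjusted p = 0.00591) and not without it (0.557). All of its exon bases are shared with Ddi2 on the same strand, so the count depends on how shared reads were assigned.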
